A study of Mus musculus with 8 samples.

Results

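The genes described here encode the acrosome, the enzyme-filled vesicle that caps the sperm head, the structures that build it and hold it to the nucleus, and the proteins with which sperm bind and fuse with the egg. The set was defined as 33 gene symbols, by the known roles of the genes and not by a cutoff on their values. Earlier results of these data were known when the set was chosen. All 33 were found, with 1 row each, among the 57690 rows of the deposited table. All 33 passed the filter of a mean of at least 1 TPM and were among the 20343 genes tested. The unit TPM gives a gene's transcripts as a share of its library after correction for length.

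The acrosome forms from Golgi vesicles that fuse and spread over the nucleus of the round spermatid. A cytoskeletal plate, the acroplaxome, and later the perinuclear theca fasten it there. At fertilization it releases hyaluronidases, proteases and zona-binding proteins and exposes membrane proteins that act at the egg surface. Most of these genes are transcribed from late meiosis through the round spermatid stage. Loss of several of them gives round-headed sperm without an acrosome, or sperm that cannot fuse with the egg.

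Testes of 8-week-old C57BL/6 males were sampled 7 days after treatment with anti-PD-L1 antibody or IgG2b isotype control. Each male had been given 200 µg into the peritoneum on 2 occasions, and each group had 4 bulk RNA libraries. PD-L1 is a ligand that restrains T cells through PD-1. Nothing in the labels tells whether libraries are separate males, so the p-values cover the spread among libraries, which may be technical.

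Transcripts of testis cells were present in every library: Prm1 of elongating spermatids was between 12102 and 16632 TPM, Sycp3 of spermatocytes between 178 and 263 TPM, and Wt1 of Sertoli cells between 25.4 and 37.0 TPM. TPM keeps no read totals, so depth is unknown. A pair of libraries stood apart: anti-PD-L1 replicate 1 and IgG replicate 4 had 31322 and 31572 genes above 0 TPM, against 29064 to 29904 in the other 6. Values without this pair are given for counts, for Spaca6 and for the 7 genes with the largest differences. In bulk tissue, fewer cells of a type and less RNA per cell cannot be told apart.

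No acrosome or fertilization gene passed the test between the groups. The smallest adjusted p among the 33 was 0.7155 (limma, Benjamini-Hochberg over 20343 genes), and 0 of all 20343 genes (0%) passed 0.05. At an unadjusted p under 0.05 in limma, 5 of the 33 were higher after anti-PD-L1 (15.2%) and 0 were lower, while of all genes tested 3.0% were higher and 2.22% lower. These 5 were Eqtn and Spaca1, placed here in the role of acrosome membrane, and Lyzl1, Lyzl6 and Spam1, placed in that of acrosome contents. The count was 8 without the pair of libraries that stood apart, where 6.50% of all genes tested were also higher, and 0 with TMM rescaling, where 2.02% were. Without IgG replicate 4 it was 8, beside 6.32% of all genes. It was 3 without IgG replicate 1 (2.56%), 2 without anti-PD-L1 replicate 3 (3.11%) or 4 (2.61%), and 1 without anti-PD-L1 replicate 2 (2.26%) or IgG replicate 2 (2.04%) or 3 (2.17%).

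Over the 33 genes the median log2 difference was 0.05, and over all genes tested it was 0.03. The median of the 33 was -0.00083 without IgG replicate 1, 0.0088 with TMM rescaling, 0.02 without anti-PD-L1 replicate 2 or 3, 0.03 without IgG replicate 3 and 0.08 without the pair that stood apart, so it rested on single libraries and on the scaling. All differences are in log2(TPM + 1), anti-PD-L1 minus IgG, a scale that understates the change of low genes. They were above 0 for 24 genes (72.7%) and below 0 for 9, where 58.3% of all genes tested were above 0. With TMM rescaling 17 of the 33 were above 0, and without IgG replicate 1 it was 16. Over all genes, 611 were higher and 452 lower at an unadjusted p under 0.05 in limma, while TMM rescaling gave 410 higher and 470 lower and quantile normalization 524 higher and 596 lower.

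The spread of the 33 genes was small. For 31 of them the 95% confidence interval of the log2 difference lay within 0.5 on either side of 0, and the exceptions were Spaca1 and Spaca6. The median standard error was 0.07 for these genes and 0.14 for all genes tested. Their median coefficient of variation over the 8 libraries was 6.90%, against 15.1% for all genes tested. These sets differ in level, as 53.5% of all genes tested lay below Tmem95, the lowest of the 33. Genes of like level were not compared, so the smaller spread cannot be called particular to the set. Spink2 varied least at 2.91%, and Spaca6 most at 29.6%. For all 23 genes with a log2 difference under 0.1 in size, leaving out 1 library turned its sign or moved it by over 1.5 times, and the same held for 5 of the 10 larger ones.

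Levels spanned 80.4-fold between genes on the TPM scale. Spink2, at a mean of 838 TPM over the 8 libraries, was highest, followed by Actl7b at 773 TPM and Acrbp at 543 TPM. Tmem95 at 10.4 TPM and Gopc at 12.7 TPM were lowest, and 21 genes were above 100 TPM. Together the genes made up 0.597% to 0.664% of the transcripts in anti-PD-L1 libraries and 0.597% to 0.634% in IgG libraries. The deposited annotation gives the term acrosomal vesicle to 14 of them (42.4%) and to 98 of all genes tested (0.482%). They lie on 14 chromosomes, and 4 of them, Spaca4, Ccin, Actl7a and Actl7b, have a single exon in GENCODE.

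**Figure D1:**
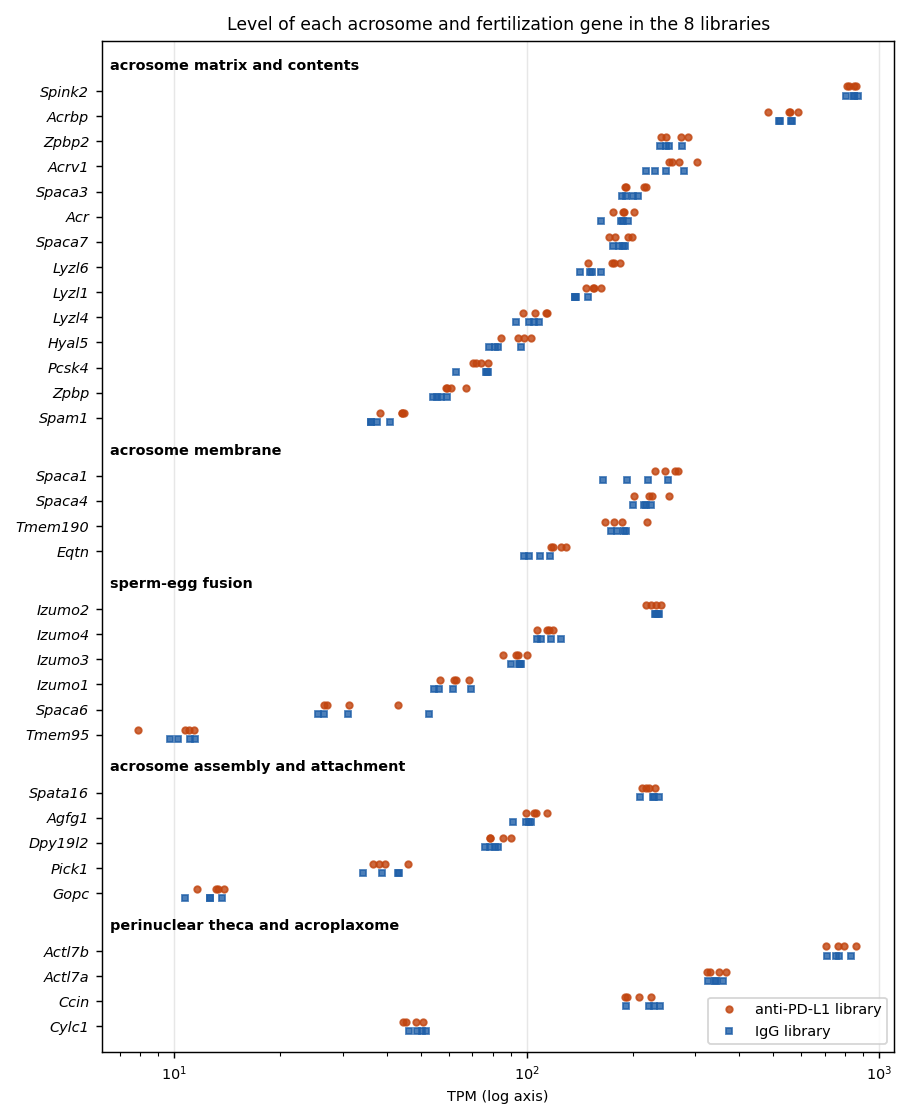
TPM on a log axis for each of the 33 genes, grouped by role, with the 4 anti-PD-L1 libraries and the 4 IgG libraries as separate markers. Means run from 10.4 TPM for Tmem95 to 838 TPM for Spink2, and the groups overlap for every gene but Eqtn.

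**Figure D2:**
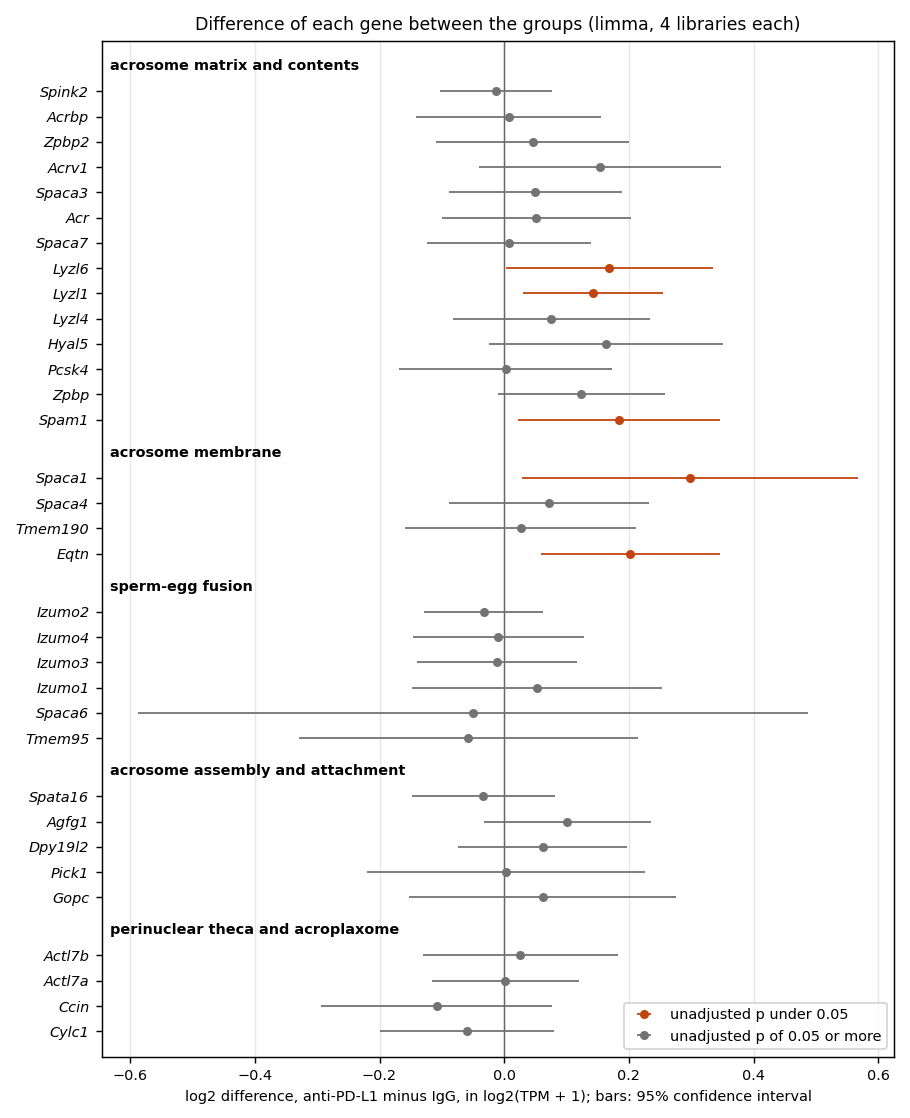
Log2 difference of each gene, anti-PD-L1 minus IgG, with its 95% confidence interval from limma, 4 libraries each. The intervals of 5 genes exclude 0 before adjustment, and 24 of 33 points lie above 0.

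Acrosome contents were the largest role, with 14 genes. Roles were assigned here, 1 to each gene, and Spam1 and Hyal5 were placed in this role. Counts and medians by role depend on that assignment. Differences were above 0 for 13 and below 0 for 1, with a median of 0.06. With TMM rescaling 10 of the 14 were above 0, as they were without anti-PD-L1 replicate 2. The number was 9 without IgG replicate 1. Without anti-PD-L1 replicate 3 the median was 0.04, and without the pair that stood apart 0.12. Spink2 encodes a Kazal-type inhibitor that holds the protease acrosin in check. It had 809.5, 819, 849.6 and 859 TPM in anti-PD-L1 replicates 1 to 4, against 849.6, 871, 844 and 803 TPM in IgG replicates 1 to 4. The groups overlapped, and the log2 difference was -0.01 with an interval from -0.10 to 0.08, the narrowest of the set.

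Acrbp binds the inactive precursor of acrosin. It had 482, 557, 589 and 552 TPM in anti-PD-L1 replicates 1 to 4, against 517, 563, 563 and 522 TPM in IgG replicates 1 to 4. Anti-PD-L1 replicates 1 and 3 were the lowest and the highest of all 8 libraries, and the log2 difference was 0.007. Acr, the gene of acrosin itself, averaged 188 ± 10.6 TPM after anti-PD-L1 and 182 ± 13.8 TPM after IgG (SD, n = 4 each), a log2 difference of 0.05. Pcsk4, a proprotein convertase of germ cells, averaged 73.4 ± 3.10 TPM after anti-PD-L1 and 73.5 ± 7.03 TPM after IgG (SD, n = 4 each).

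Spam1, also called PH-20, and Hyal5 are hyaluronidases, which digest the hyaluronan around the egg. Spam1 (mm10 chromosome 6, 24791188 to 24801048, plus strand) had 38.3, 44.3, 44.9 and 44.2 TPM in anti-PD-L1 replicates 1 to 4, against 37.5, 36.0, 36.2 and 40.8 TPM in IgG replicates 1 to 4. Anti-PD-L1 replicate 1 was low in its group and lay below IgG replicate 4, so the groups overlapped. The log2 difference was 0.18 (SE 0.07), with an adjusted p of 0.8863 in limma. Without the pair that stood apart it was 0.28.

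Hyal5 lies 56949 bases downstream of Spam1 on the same strand, and its values are given because of this, a choice made after they were seen. It had 84.5, 103, 94.2 and 98.4 TPM in anti-PD-L1 replicates 1 to 4, against 83.0, 81.2, 78.2 and 96.5 TPM in IgG replicates 1 to 4. As in Spam1, anti-PD-L1 replicate 1 was the lowest of its group and IgG replicate 4 the highest of its own, and the log2 difference was 0.16 (SE 0.08), and 0.28 without that pair. The ratio of Spam1 to Hyal5 was between 0.423 and 0.477 in all 8 libraries, with means of 0.453 ± 0.0185 after anti-PD-L1 and 0.445 ± 0.0168 after IgG (SD, n = 4 each). A two-sided exact permutation test of that ratio gave p = 0.571, and the smallest p that its 70 assignments allow is 0.0286. The pattern was not particular to these neighbours. Eqtn, Spaca1, Lyzl1 and Lyzl6 also had their lowest anti-PD-L1 value in replicate 1 and their highest IgG value in replicate 4. For genes that are not neighbours, the ratio of Lyzl1 to Lyzl6 had a like spread, 0.875 to 0.990. That of Zpbp to Zpbp2 had a wider one, 0.198 to 0.253.

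The 250 bases before the RefSeq start of each hyaluronidase gene (build GRCm38.p6, 5′ to 3′ on the gene's strand) are shown because the genes are neighbours. The part of position or promoter in their values was not tested. Capitals mark the longest run of bases that both windows share, picked out after the sequences were read.
Spam1 (chr6:24790938-24791187, plus strand): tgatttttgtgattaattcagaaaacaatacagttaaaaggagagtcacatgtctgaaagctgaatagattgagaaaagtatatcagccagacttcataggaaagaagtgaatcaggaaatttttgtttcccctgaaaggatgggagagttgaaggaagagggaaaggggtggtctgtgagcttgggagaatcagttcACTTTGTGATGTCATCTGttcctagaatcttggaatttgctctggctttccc
Hyal5 (chr6:24857747-24857996, plus strand): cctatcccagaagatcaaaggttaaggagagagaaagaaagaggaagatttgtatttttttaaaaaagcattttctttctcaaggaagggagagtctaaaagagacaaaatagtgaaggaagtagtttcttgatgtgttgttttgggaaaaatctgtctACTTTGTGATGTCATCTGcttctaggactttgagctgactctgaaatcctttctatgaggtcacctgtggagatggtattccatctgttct
The run of 18 bases begins 52 bases before the start of Spam1 and 91 bases before that of Hyal5. Of 32851 promoter windows 2 hold it, both strands searched, and these are the 2 from which it was taken. The longest shared run was not sought for other pairs of genes, so its length and rarity have no measure beside them. Within the run lies TGATGTCA, which 2.93% of all windows hold. Among the 28 of 33 genes with a window, TGATGTCA was also found for Actl7a, Actl7b, Cylc1, Lyzl6 and Spaca7. In a global alignment the Spam1 and Hyal5 windows were identical in 50.3% of columns. The same measure was 48.0% for Spam1 and Acrv1 and 45.2% for Hyal5 and Spaca1. A match is a description of the letters and not of a bound site.

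Lyzl1, Lyzl4, Lyzl6 and Spaca3 encode lysozyme-like proteins of sperm. Lyzl1 had 147, 163, 154 and 155 TPM in anti-PD-L1 replicates 1 to 4, against 137, 138, 137 and 149 TPM in IgG replicates 1 to 4. IgG replicates 1 to 3 lay below every anti-PD-L1 library, and IgG replicate 4 lay above anti-PD-L1 replicate 1. The log2 difference was 0.14 (SE 0.05), with an adjusted p of 0.8122 in limma, and it was 0.20 without the pair that stood apart.

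Lyzl6 had 149, 183, 174 and 177 TPM in anti-PD-L1 replicates 1 to 4, against 151, 153, 141 and 162 TPM in IgG replicates 1 to 4. Anti-PD-L1 replicates 2 to 4 lay above all IgG libraries, and replicate 1 lay below 3 of them. The log2 difference was 0.17 (SE 0.07), with an adjusted p of 0.9421 in limma, and it was 0.26 without the pair that stood apart. Spaca3 had 189.8, 217, 214 and 191 TPM in anti-PD-L1 replicates 1 to 4, against 191, 207, 186 and 201 TPM in IgG replicates 1 to 4. Its groups overlapped, and its log2 difference was 0.05. Lyzl4 averaged 108 ± 8.05 TPM after anti-PD-L1 and 102 ± 6.47 TPM after IgG (SD, n = 4 each). It overlaps the antisense gene Lyzl4os by 27259 bases, which averaged 87.1 TPM after anti-PD-L1 and 78.4 TPM after IgG. Overlaps are given here for whole gene spans, introns included, and overlap of exons was not computed. The strand setting of the counting is not given in the sources used here. Where exons on opposite strands share bases, their reads may therefore not be told apart.

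Acrv1 encodes the acrosomal matrix protein SP-10. It had 252, 303, 258 and 270.1 TPM in anti-PD-L1 replicates 1 to 4, against 231, 248, 218 and 279 TPM in IgG replicates 1 to 4. IgG replicate 4 exceeded all anti-PD-L1 libraries but replicate 2, and the log2 difference was 0.15 with an interval from -0.04 to 0.35. It was 0.10 without anti-PD-L1 replicate 2 or IgG replicate 3, and 0.25 without the pair that stood apart. The Acrv1 promoter is known in mice for GTGTGT motifs bound by TDP-43, and its window is shown with these in capitals, on either strand.
Acrv1 (chr9:36692970-36693219, plus strand): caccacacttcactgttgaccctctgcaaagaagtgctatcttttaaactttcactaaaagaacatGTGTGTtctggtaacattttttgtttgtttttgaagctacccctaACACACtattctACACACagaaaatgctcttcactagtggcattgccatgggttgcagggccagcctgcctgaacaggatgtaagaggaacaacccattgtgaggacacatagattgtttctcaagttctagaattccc
The motif occurs 3 times, from 184 to 127 bases before the start. It is in 14.9% of all windows and in 5 of the 28 genes with a window.

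Zpbp2 and Zpbp encode zona pellucida binding proteins. Zpbp2 had 248, 239.9, 286 and 274 TPM in anti-PD-L1 replicates 1 to 4, against 248, 252, 275 and 239 TPM in IgG replicates 1 to 4. Its groups overlapped, and its log2 difference was 0.05. Zpbp averaged 61.7 ± 3.88 TPM after anti-PD-L1 and 56.5 ± 2.09 TPM after IgG (SD, n = 4 each), a log2 difference of 0.12 with an interval from -0.01 to 0.26, and of 0.08 without anti-PD-L1 replicate 3. It overlaps Spata48 on the opposite strand by 315 bases, and Spata48 averaged 87.1 and 83.8 TPM in anti-PD-L1 and IgG libraries. Spaca7, an acrosomal protein that helps sperm disperse the cumulus, averaged 185 ± 13.3 TPM after anti-PD-L1 and 184 ± 5.95 TPM after IgG (SD, n = 4 each).

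The acrosome membrane had 4 genes and held the pair with the largest differences. All 4 were above 0, with a median of 0.14, and 3 were with TMM rescaling or without anti-PD-L1 replicate 2. Eqtn encodes equatorin, which takes part in acrosomal exocytosis and fusion (mm10 chromosome 4, 94907267 to 94928843, minus strand). It had 117, 129, 125 and 119 TPM in anti-PD-L1 replicates 1 to 4, against 109, 102, 98.2 and 117 TPM in IgG replicates 1 to 4. Every anti-PD-L1 library lay above every IgG library, by a narrow gap: the lowest anti-PD-L1 library was at 117.35 TPM and the highest IgG library at 116.64 TPM. Eqtn was the 1 gene of 33 (3.03%) whose groups did not overlap in this direction, against 1.76% of all genes tested, and 0 of the 33 lay entirely below, against 1.23%. Its mean was 15.0% higher, at 122 ± 5.29 TPM after anti-PD-L1 and 106 ± 8.19 TPM after IgG (SD, n = 4 each). The log2 difference was 0.20 (SE 0.06), with an adjusted p of 0.7155 in limma, and it was 0.27 without the pair that stood apart.

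Spaca1 encodes a protein of the inner acrosomal membrane whose loss in mice gives round-headed sperm (mm10 chromosome 4, 34024874 to 34050191, minus strand). It had 231, 268, 264 and 247 TPM in anti-PD-L1 replicates 1 to 4, against 220.2, 165, 193 and 251 TPM in IgG replicates 1 to 4. IgG replicates 1 to 3 lay below all anti-PD-L1 libraries and IgG replicate 4 lay among them. The log2 difference was 0.30 (SE 0.12), the largest of the set, with an adjusted p of 0.9053 in limma. It was 0.19 without IgG replicate 2, the lowest library, and 0.44 without the pair that stood apart. The ratio of Spaca1 to Acrv1 was 0.665 in IgG replicate 2 and between 0.885 and 1.02 in the other 7 libraries, so Acrv1 did not share that low value.

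Spaca4 is a surface protein used in passage through the zona. It had 202, 253, 222 and 226 TPM in anti-PD-L1 replicates 1 to 4, against 199, 225, 215 and 218 TPM in IgG replicates 1 to 4. The groups overlapped, and the log2 difference was 0.07. Its single exon lies within Fam83e on the opposite strand, which averaged 89.9 and 90.1 TPM in anti-PD-L1 and IgG libraries. Tmem190, a membrane protein of the acrosome, averaged 187 ± 22.7 TPM after anti-PD-L1 and 183 ± 7.83 TPM after IgG (SD, n = 4 each), a log2 difference of 0.03.

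**Figure D3:**
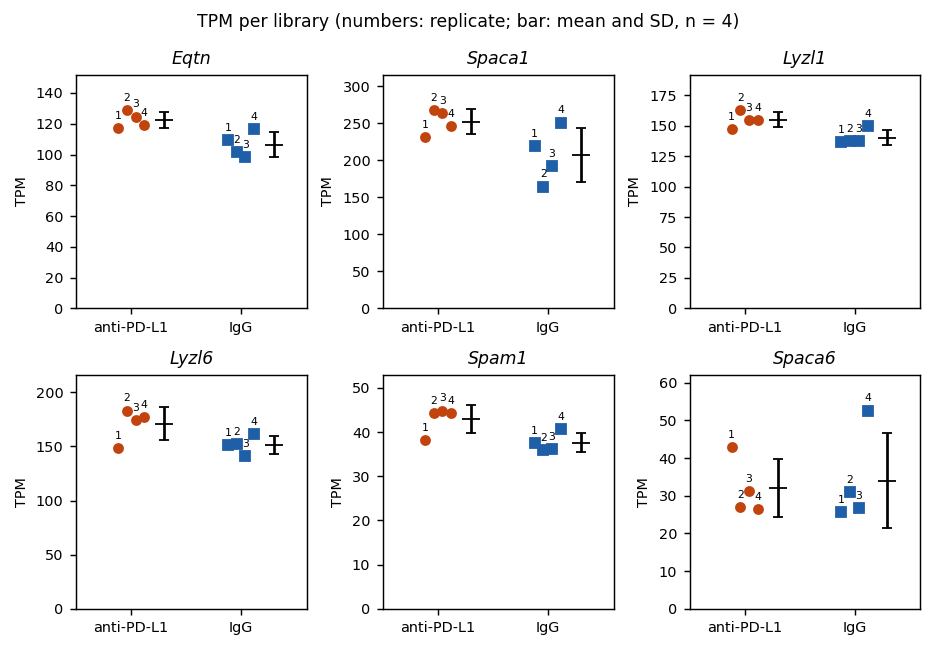
TPM in each library for Eqtn, Spaca1, Lyzl1, Lyzl6, Spam1 and Spaca6, anti-PD-L1 left of IgG, with the mean and SD (n = 4) as a bar and axes from 0. IgG replicate 4 is the highest IgG library in all 6 panels, and anti-PD-L1 replicate 1 is the lowest of its group for every gene shown except Spaca6, where it is the highest.

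The role of sperm-egg fusion was assigned here and takes in Izumo1 to Izumo4. The deposited annotation gives the term fusion of sperm to egg plasma membrane to 7 of the 33 genes. In this role these are Izumo1 and Spaca6, and in other roles Spaca3, Eqtn, Spam1, Hyal5 and Lyzl6. The 6 genes placed in the role had 1 difference above 0, 5 below and a median of -0.02. Without the pair of libraries that stood apart 5 were above 0, and 3 were without either of them alone. Izumo2, the most abundant, had 225, 239, 233 and 218 TPM in anti-PD-L1 replicates 1 to 4, against 230.2, 232, 237 and 236 TPM in IgG replicates 1 to 4. The IgG values lay within the range of the anti-PD-L1 values, and the log2 difference was -0.03 with an interval from -0.13 to 0.06.

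Izumo1 is the sperm protein that binds JUNO on the egg. It had 62.3, 68.4, 63.0 and 56.8 TPM in anti-PD-L1 replicates 1 to 4, against 56.2, 61.9, 54.4 and 69.4 TPM in IgG replicates 1 to 4. The anti-PD-L1 values lay within the range of the IgG values, and the log2 difference was 0.05. Izumo4 had 114, 115, 107 and 119 TPM in anti-PD-L1 replicates 1 to 4, against 107, 117, 109.8 and 125 TPM in IgG replicates 1 to 4. Izumo3 had 85.8, 94.3, 100.4 and 93.4 TPM in anti-PD-L1 replicates 1 to 4, against 96.0, 95.4, 90.00 and 95.3 TPM in IgG replicates 1 to 4. The groups overlapped for both, with log2 differences of -0.0096 and -0.01. In every library the order from high to low, in TPM, was Izumo2, Izumo4, Izumo3, Izumo1. Tmem95, a protein needed for fusion in mice, averaged 10.2 ± 1.59 TPM after anti-PD-L1 and 10.6 ± 0.763 TPM after IgG (SD, n = 4 each).

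Spaca6, also needed for fusion in mice, varied most between libraries. It had 43.0, 27.1, 31.2 and 26.6 TPM in anti-PD-L1 replicates 1 to 4, against 25.6, 31.1, 26.6 and 52.6 TPM in IgG replicates 1 to 4. The highest value of each group was in the library that stood apart. The log2 difference was -0.05 with an interval from -0.59 to 0.49, and it was 0.03 without that pair. The part of these libraries in the result was not tested. The span of Spaca6 also holds the microRNA genes Mir99b, Mirlet7e and Mir125a, all listed at 0 in every library.

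The window of Izumo1 is shown because it and that of Ccin, a gene of the perinuclear theca, are the only ones of the 28 that hold the full cAMP response element TGACGTCA, in capitals. CREM, an activator of spermatid genes, binds this element.
Izumo1 (chr7:45621561-45621810, plus strand): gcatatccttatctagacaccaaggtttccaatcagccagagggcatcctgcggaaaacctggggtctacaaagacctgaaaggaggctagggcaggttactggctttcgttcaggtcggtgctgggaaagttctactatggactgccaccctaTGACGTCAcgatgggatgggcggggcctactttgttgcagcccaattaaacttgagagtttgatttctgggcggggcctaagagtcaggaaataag
The element begins 96 bases before the start of Izumo1 and 50 bases before that of Ccin, and 1.55% of all windows hold it. Izumo1 and Ccin had log2 differences of opposite sign, 0.05 and -0.11. The core TGACG, which the full element contains, was in 9 of the 28 (32.1%) and in 17.8% of all windows. These shares are not like measures. A gene counts if any of its windows holds the motif, and 5 genes had several, while the other share is per window. Of the other motifs searched on both strands, TATAAA was in 1 of the 28 (12.4% of all windows), GTTGCC in 4 (10.4%), AACNGTT in 1 (3.80%), CCCCACCC in 4 (9.05%) and CCAAT in 9 (33.9%).

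Genes of acrosome assembly and attachment numbered 5, of which 4 were above 0 and 1 below, with a median of 0.06. With TMM rescaling 3 were above 0. Without IgG replicate 1 the role turned, with 2 above, 3 below and a median of -0.00083, and without anti-PD-L1 replicate 1 the median was 0.03. Spata16, a Golgi protein that reaches the growing acrosome, had 212, 218, 231 and 222 TPM in anti-PD-L1 replicates 1 to 4, against 237, 229.9, 227 and 209 TPM in IgG replicates 1 to 4. The groups overlapped, and the log2 difference was -0.03. Agfg1, which acts in the fusion of vesicles into the acrosome, had 99.4, 106, 114 and 105 TPM in anti-PD-L1 replicates 1 to 4, against 91.6, 103, 99.1 and 102 TPM in IgG replicates 1 to 4. IgG replicate 1 was the lowest library, and the log2 difference was 0.10 with an interval from -0.03 to 0.23. It was 0.07 without IgG replicate 1 or anti-PD-L1 replicate 3.

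Dpy19l2 anchors the acrosome to the nuclear envelope and is often lost in human globozoospermia. It averaged 83.3 ± 5.68 TPM after anti-PD-L1 and 79.7 ± 2.84 TPM after IgG (SD, n = 4 each). Its span holds Cypt4 on the opposite strand, which averaged 678 and 717 TPM in anti-PD-L1 and IgG libraries. Gopc and Pick1 sort Golgi vesicles to the acrosome, and both had their lowest value in IgG replicate 1. Gopc averaged 13.0 ± 0.97 TPM after anti-PD-L1 and 12.4 ± 1.21 TPM after IgG (SD, n = 4 each). Pick1 averaged 40.02 ± 4.15 TPM after anti-PD-L1 and 39.95 ± 4.33 TPM after IgG (SD, n = 4 each).

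Perinuclear theca and acroplaxome genes numbered 4, with 2 differences above 0, 2 below and a median of -0.03. With TMM rescaling, or without anti-PD-L1 replicate 2 or IgG replicate 1, 0 were above 0. Actl7b and Actl7a, actin-related proteins of the spermatid head, lie 1970 bases apart and point away from each other. Actl7b had 705, 857, 794 and 765 TPM in anti-PD-L1 replicates 1 to 4, against 709.8, 831, 753 and 769 TPM in IgG replicates 1 to 4. The groups overlapped, and the log2 difference was 0.03. Actl7a had 324, 366, 351 and 331 TPM in anti-PD-L1 replicates 1 to 4, against 326, 359.9, 343 and 341 TPM in IgG replicates 1 to 4. Its groups overlapped too, and its log2 difference was 0.0019. The ratio of Actl7a to Actl7b lay between 0.427 and 0.459 in all 8 libraries.

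Ccin encodes calicin, a protein of the calyx behind the acrosome. It had 209, 225, 192 and 190.3 TPM in anti-PD-L1 replicates 1 to 4, against 191, 238, 230.0 and 222 TPM in IgG replicates 1 to 4. IgG replicate 1 lay with the low anti-PD-L1 libraries, and the log2 difference was -0.11, the lowest of the set, with an interval from -0.29 to 0.08. Without IgG replicate 1 it was -0.18, with an adjusted p of 0.953 in limma and an unadjusted p under 0.05, and without IgG replicate 2 it was -0.07. Cylc1, the X-linked gene of cylicin, averaged 47.3 ± 2.77 TPM after anti-PD-L1 and 49.3 ± 2.29 TPM after IgG (SD, n = 4 each).

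**Figure D4:**
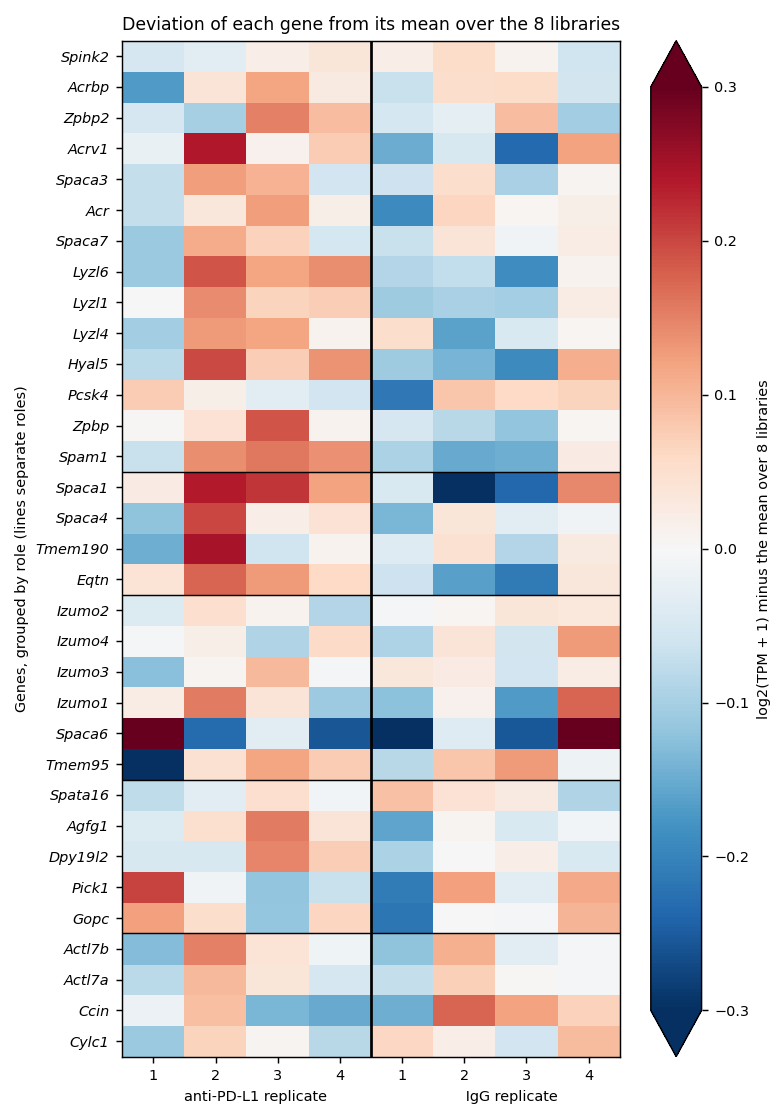
Heat map of log2(TPM + 1) minus the gene's mean over the 8 libraries, genes by role, anti-PD-L1 replicates left of the line and IgG replicates right. Anti-PD-L1 replicate 2 holds the highest value of 14 genes and IgG replicate 1 the lowest value of 10, and Spaca6 is far above its mean in anti-PD-L1 replicate 1 and IgG replicate 4.

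Single libraries accounted for many of the extremes. Anti-PD-L1 replicate 2 held the highest value of 14 genes and replicate 3 that of 8, while anti-PD-L1 replicate 1 held the lowest value of 8. IgG replicate 1 held the lowest value of 10 genes and IgG replicate 3 that of 7. The summed level of the 33 genes was 5967, 6644, 6516 and 6319 TPM in anti-PD-L1 replicates 1 to 4, against 5971, 6336, 6121 and 6300 TPM in IgG replicates 1 to 4, and the groups overlapped.

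Markers of testis cell types were set beside these values, and no marker passed an adjusted p of 0.05 in limma. Of 10 elongating spermatid markers 0 were above 0 and 10 below, with a median of -0.14, and their sum was 58240 to 66220 TPM in anti-PD-L1 libraries and 61020 to 76420 TPM in IgG libraries. Of 10 spermatocyte markers 8 were above 0, with sums of 1822 to 2060 TPM and 1770 to 1928 TPM in anti-PD-L1 and IgG libraries. Of 10 round spermatid markers, 1 of them Acrv1, 5 were above 0, with sums of 1615 to 1784 TPM and 1655 to 1797 TPM in anti-PD-L1 and IgG libraries. Of 10 spermatogonia markers 6 were above 0, and of 10 Sertoli cell markers 4.

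Leydig cell markers divided 5 above and 5 below 0, but their sums did not overlap, at 2253 to 3529 TPM in anti-PD-L1 libraries and 1273 to 1657 TPM in IgG libraries. Insl3, a peptide hormone of Leydig cells, averaged 2210 and 874 TPM in anti-PD-L1 and IgG libraries and made up most of that sum. Macrophage markers summed to 57.9 to 72.2 TPM and 51.0 to 61.8 TPM in anti-PD-L1 and IgG libraries, T cell markers to 3.64 to 5.39 TPM and 4.15 to 5.11 TPM, and adipocyte markers, of which 0 of 6 tested were above 0, to 175 to 199 TPM and 188 to 250 TPM. Lipe averaged 177 and 185 TPM in anti-PD-L1 and IgG libraries and made up most of the adipocyte sum. The adipocyte marker Adipoq averaged only 4.27 and 6.59 TPM, so that sum does not measure adipocyte RNA. Of 10 markers of the epididymal epithelium 5 were listed at 0 in every library, and the sum was 3.26 to 4.09 TPM and 3.29 to 4.66 TPM in anti-PD-L1 and IgG libraries. Rnase10 alone averaged 3.615 and 3.657 TPM and made up most of the epididymal sum. The part of cell composition in the acrosome values was not tested.

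**Figure D5:**
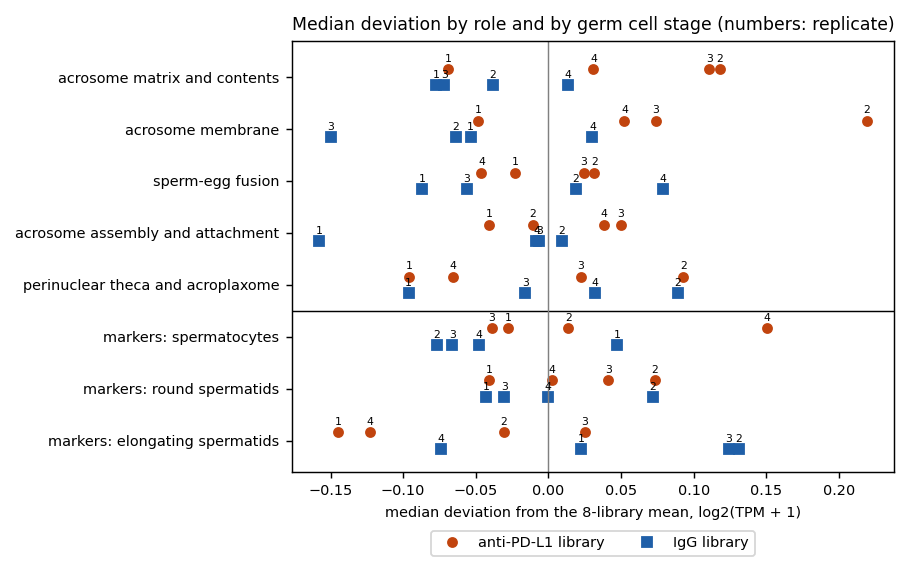
Median deviation from the 8-library mean, in log2(TPM + 1), for each role and, under the line, for markers of 3 germ cell stages; circles are anti-PD-L1 libraries, squares IgG libraries, numbers the replicate. For acrosome contents and membrane, anti-PD-L1 replicates 2 to 4 lie right of all IgG libraries and replicate 1 lies among them.

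Other genes of the same processes gave no call either. Of 13 further genes of sperm-egg adhesion and fusion 12 were tested, 10 above 0 and 2 below, with a median of 0.05 and 0 at an unadjusted p under 0.05. Dcst2, needed for fusion in mice, had the smallest p of that list and averaged 41.4 ± 3.33 TPM after anti-PD-L1 and 37.8 ± 3.18 TPM after IgG (SD, n = 4 each). Of 16 further genes of acrosome contents and exocytosis 14 were in the table and 11 were tested, 7 above 0 and 4 below, with a median of 0.08 and 0 at that threshold. In this list Spaca9 averaged 739 ± 28.4 TPM after anti-PD-L1 and 789 ± 44.9 TPM after IgG (SD, n = 4 each).

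Of 30 further genes of acrosome biogenesis and the perinuclear theca 29 were tested, 19 above 0 and 10 below, with a median of 0.02 and 0 at that threshold. Fam71f1 averaged 272 ± 11.2 TPM after anti-PD-L1 and 297 ± 19.5 TPM after IgG (SD, n = 4 each). Golga4, a tether of the Golgi, averaged 140.0 ± 2.55 TPM after anti-PD-L1 and 128 ± 11.4 TPM after IgG (SD, n = 4 each). The log2 differences of these were -0.13 and 0.13.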

How the data were processed

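The authors deposited TPM per gene for 8 libraries, with group means and gene lengths, per the file headers. Programs named in the submitters' processing notes are CASAVA 1.8, HISAT2, StringTie and RSEM, with mm10. Their order, annotation and strand setting were not stated. Libraries used the TruSeq RNA kit, per the labels' protocols. TPM keeps no depth, so no counting intervals are given.

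Groups and replicate numbers come from the sample titles. From the TPM, log2(TPM + 1) was computed, a mean of 1 TPM or more was required, and limma 3.58.1 (R 4.3.3) was fitted with an intensity trend and a group term. P-values were adjusted over all 20343 genes by Benjamini-Hochberg, and the code was tested on simulated data. Ratios were compared by exact permutation (Python 3.11.15). Coordinates and overlaps come from GENCODE M21 (GRCm38, also called mm10) and promoter windows from RefSeq (GRCm38.p6), which matched 28 of 33 genes. Overlaps are of whole gene spans, introns included. A motif was counted for a gene if any of its windows held it, and 5 of these genes had several. Shares over all windows are per window.

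The genes, lists and tests were chosen with earlier results of these data known. Values of every library are given for genes at an unadjusted p under 0.05, for the most abundant gene of each role and for up to 4 more by level; of other lists, those with the smallest p are named. Alternatives were another pseudocount (0.1), filters (none, or 5 TPM), quantile or TMM scaling, library weights, no trend, a replicate block and leaving out each library. Leaving out the pair that stood apart was added after seeing the data.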

Additional observations from a re-analysis of the deposited data

Results flagged for a closer look

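In 4 of 66 groups of 4 libraries, 1 library lay far from the other 3 by Dixon's test. Chance gives about 1 in 20 such groups. For Spam1, anti-PD-L1 replicate 1 was at 38.28 TPM, and the other 3 anti-PD-L1 libraries were between 44.25 and 44.9 TPM. For Lyzl1, IgG replicate 4 was at 149.41 TPM, and the other 3 IgG libraries were between 136.56 and 137.56 TPM. Both libraries belong to the pair that stood apart. For Pcsk4, IgG replicate 1 was at 63.03 TPM, and the other 3 were between 76.43 and 77.79 TPM. For Izumo3, IgG replicate 3 was at 90.0 TPM, and the other 3 were between 95.26 and 95.97 TPM.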

How the results depend on the processing

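Under none of 17 alternatives did any of the 33 genes pass an adjusted p of 0.05 in limma, and 19 of the 33 kept the sign of their difference under all of them. With the TMM factors the log2 differences were -0.011 for Tmem190, -0.011 for Actl7b, -0.029 for Spaca7, -0.030 for Acrbp, -0.033 for Pick1, -0.035 for Pcsk4 and -0.035 for Actl7a. With quantile normalization they were -0.017 for Pcsk4 and -0.032 for Pick1, and with array quality weights -0.031 for Pcsk4, -0.035 for Pick1, 0.0093 for Izumo3 and 0.012 for Izumo4. Without the pair of libraries that stood apart they were -0.00036 for Pcsk4, -0.025 for Pick1, 0.028 for Spaca6, 0.031 for Izumo4, 0.034 for Izumo3 and 0.037 for Tmem95. Leaving out each library in turn gave log2 differences of -0.0031 to 0.084 for Acr, -0.031 to 0.065 for Acrbp, -0.027 to 0.047 for Spaca7, -0.069 to 0.030 for Pcsk4, -0.00083 to 0.111 for Gopc, -0.066 to 0.045 for Pick1, -0.030 to 0.029 for Actl7a, -0.020 to 0.074 for Actl7b, -0.042 to 0.031 for Izumo4, -0.035 to 0.0032 for Spink2, -0.198 to 0.176 for Spaca6, -0.047 to 0.028 for Izumo3, -0.106 to 0.051 for Tmem95 and -0.052 to 0.079 for Tmem190. The count of the 33 higher at an unadjusted p under 0.05 in limma was 0 with TMM rescaling, where 2.02% of all genes tested were higher. It was 8 with array quality weights (6.74%), 8 without the pair (6.50%) and 1 without an intensity trend (2.81%). Without single libraries it was 1 to 8, and the count of lower genes was 0 to 1. Genes past the adjusted threshold, over all genes, numbered 5 with array quality weights, 1 with a pseudocount of 0.1, 9 without the pair and 0 to 16 without single libraries (16 without IgG replicate 4, 3 without anti-PD-L1 replicate 4). The cause of these changes was not tested. Libraries of the same replicate number deviated from their group means with correlations of -0.11, 0.10, 0.09 and -0.20. Such weak correlations cannot tell whether the numbers pair the libraries, as a pairing may have little effect on expression. With a replicate block 4 of the 33 genes were higher at an unadjusted p under 0.05 in limma, and 0 genes passed the adjusted threshold. Unknown depth and 4 libraries a group limit what could be detected.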

Other observations

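Spaca6 was not alone in being high in anti-PD-L1 replicate 1 and IgG replicate 4. The genes named next, from the list of other acrosome content and exocytosis genes, were picked after their values were seen. Fer1l5, a ferlin, had 17.8, 7.10, 8.06 and 8.52 TPM in anti-PD-L1 replicates 1 to 4, against 6.05, 6.05, 5.89 and 19.2 TPM in IgG replicates 1 to 4. Pla2g10, a secreted phospholipase, had 32.0, 18.7, 21.6 and 18.3 TPM in anti-PD-L1 replicates 1 to 4, against 17.2, 18.5, 18.5 and 32.4 TPM in IgG replicates 1 to 4. Vamp2, a vesicle fusion protein, had 21.0, 14.0, 13.4 and 14.6 TPM in anti-PD-L1 replicates 1 to 4, against 10.4, 12.3, 11.8 and 22.6 TPM in IgG replicates 1 to 4. In each of these genes the library of the pair was the highest of its group.

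The antisense gene 4930557K07Rik, which overlaps Acrbp by 163 bases, averaged 4.84 TPM after anti-PD-L1 and 7.83 TPM after IgG. Its log2 difference was -0.56, beside 0.0070 for Acrbp. Of the tested genes overlapping the set it had the largest difference in size, so it is the extreme of several. The unadjusted p in limma was 0.017, and no gene passed after adjustment.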
